A study of Homo sapiens with 8 samples.

Results

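Long intergenic noncoding RNAs that carry a LINC number were followed in SK-N-SH cells in which ZMYND8 was raised or lowered during treatment with retinoic acid. The 88 genes described here were chosen by their lncRNA biotype, a symbol of LINC followed by digits, and a raw count sum of at least 1000 over the 8 libraries. They are 88 of 2246 LINC-numbered lncRNAs and of 60659 genes in the table, and 867 of the LINC-numbered lncRNAs had no count. The genes just outside the selection were LINC03011 with a sum of 994 and LINC02236 with 996, and those just inside were LINC01355 with 1010 and LINC01587 with 1019. The sums reached 25096 for LINC01116, 35614 for LINC00963 and 38273 for LINC00205.

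SK-N-SH is a human neuroblastoma line that turns towards a neuronal form when given all-trans retinoic acid (ATRA). All 4 groups received 10 µM ATRA for 24 h, with 2 libraries per group, which the labels call biological replicates. Parental cells with doxycycline (Dox) were compared with Dox-treated cells that carry FLAG-ZMYND8 in a Dox-inducible lentiviral vector and had been selected with G418. KD control cells were compared with ZMYND8 KD cells, made with a lentiviral shRNA vector that carries puromycin resistance. The parental cells are not described as carrying an empty vector, so carriage of the vector, selection and ZMYND8 level cannot be told apart in that experiment. The libraries were made from total RNA after rRNA depletion with random hexamers, so that RNAs without a poly(A) tail could be counted.

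ZMYND8 is a chromatin reader that binds modified histone tails and works with both activating and repressive complexes. A lncRNA is a transcript with no long open reading frame. Some act on the genes beside them, some act elsewhere, and for many no role is known. A lncRNA that lies beside a developmental transcription factor gene often shares its pattern of expression.

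The libraries held between 38316523 and 56256979 counts on genes, and the 88 LINC RNAs took 0.105% to 0.143% of them. The counts of ZMYND8 itself were 3089 and 3612 in parental and 220691 and 182849 in overexpression. It had 3128 and 3374 in KD control and 1641 and 1640 in ZMYND8 KD, so the targeted gene moved the way each label says. Levels are given as CPM, the counts of a gene relative to the size of its library, scaled by TMM over all 8 libraries. Log2 fold changes and p come from the quasi-likelihood test of edgeR, with p adjusted by Benjamini-Hochberg over all genes tested. A gene is said to have risen or fallen at an adjusted p below 0.05, and a 2-fold change is one that also reached 1 on the log2 scale, up or down, in a gene whose mean normalized count exceeded 20. With 2 libraries per group the p-values rest on the spread between those libraries.

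The markers of the line differed between groups along with the LINC RNAs. The summed level of 8 adrenergic neuroblastoma markers, such as HAND2 and DBH, was 270 and 274 CPM in parental, 728 and 757 in overexpression, 659 and 689 in KD control and 510 and 576 in ZMYND8 KD. TH, the rate-limiting enzyme of catecholamine synthesis, stayed at or below 0.0898 CPM. The sum of 6 mesenchymal markers, such as PRRX1, VIM and FN1, was 5280 and 5440 CPM in parental, 2230 and 2030 in overexpression, 2550 and 2570 in KD control and 3070 and 2930 in ZMYND8 KD. Single markers did not all follow the sum, since TWIST1 was 85.3 and 84.4 CPM in parental and 196 and 198 in overexpression, and PRRX1 was 131 and 131 in KD control and 67.2 and 65.3 in ZMYND8 KD. The part of these markers in the results below was not tested, and in bulk RNA fewer cells of a state and less RNA per cell cannot be told apart. Markers of other cells were low, with sums of at most 0.308 CPM for leukocytes, 1.98 for endothelium, 1.03 for epithelium and 3.52 for Schwann cells, and SOX10 at no more than 0.0237.

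The LINC RNAs were spread over 22 chromosomes. A median gene spanned 18138 bases and held 4349.5 exonic bases, close to the 4319 of protein-coding genes and above the 1830.5 of the other LINC-numbered lncRNAs. This is a feature that a count sum favours, since a longer transcript collects more reads. The highest levels per kilobase of exon were 30.5 CPM for LINC02154, 29.1 for LINC01116, 15.4 for LINC01963, 15.4 for LINC00294 and 12.5 for LINC00205, against a median of 1.63. The name intergenic held for 76 of the 88, which lay over no protein-coding gene on either strand, while 12 overlapped one. Exons of 13 shared bases with another gene on the same strand and those of 35 with a gene on the opposite strand. The methods do not state the strand setting of the counting, so reads of such pairs are uncertain. In 14 genes at least 20% of the exon bases were shared. LINC01089 was among them, with 41.7% of its exon bases shared with RHOF on the same strand and 48.7% with other genes on the opposite strand. In 10 genes at least 50% of the 31-base stretches of the exons also occurred elsewhere in the genome, with LINC01719 (85.2%), LINC01410 (81.7%) and LINC00863 (81.1%) at the top. All 31-base stretches of LINC00221 (100%) were also found on an alternate contig.

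In overexpression more of these RNAs rose than fell. Of the 88, 46 rose, 17 fell and 25 did not pass. Over all 20835 genes tested, 31.7% rose and 29.1% fell, so the rising share of the LINC RNAs, 52.3%, lay above that of all genes and the falling share, 19.3%, below it. A 2-fold rise was found for 16 and a 2-fold fall for 10, beside 11.8% and 6.84% of all genes. The median log2 fold change was 0.35, against 0.03 over all genes tested and 0.34 over the 277 other LINC-numbered lncRNAs that could be tested. The count sum alone can favour a gene that is high in 1 group. Without their highest group 27 of the 88 would have fallen under 1000, of which 11 were highest in overexpression, 8 in KD control and 8 in ZMYND8 KD. Among the other 61, 33 rose, 13 fell and 15 did not pass.

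The largest rise was that of LINC00632 on the X chromosome, the locus from which the circular RNA CDR1as is also made. It stood at 2.11 and 2.20 CPM in parental and 51.6 and 58.4 in overexpression, a log2 fold change of 4.76 (SE 0.10, adjusted p = 8.51e-11). In KD control it stood at 76.5 and 87.4 CPM and in ZMYND8 KD at 76.7 and 90.6, so both parental libraries lay below every other library. Of its exon bases 2.73% lie opposite CDR1, and gene counts do not separate circular from linear RNA.

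LINC01833 was second. It had 0.736 and 0.613 CPM in parental and 14.8 and 16.7 in overexpression (log2 fold change 4.64, SE 0.15, adjusted p = 1.75e-09). Here the overexpression libraries were the highest of all, above 4.73 and 5.62 in KD control and 4.49 and 4.95 in ZMYND8 KD. LINC01833 lies at chr2:44921077-44939199 (GRCh38) on the minus strand, 2503 bases from SIX3, a homeobox gene of the developing forebrain and eye. SIX3 rose with it, by 4.23 on the log2 scale (adjusted p = 8.2e-11).

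LINC02717 rose from 0.332 and 0.317 CPM to 4.0 and 3.29 (log2 fold change 3.58, SE 0.24). Its nearest protein-coding gene, B3GAT1, which makes the HNK-1 carbohydrate of neural cells, lies 582740 bases away and rose by 5.11. LINC00682 rose from 0.855 and 1.01 CPM to 9.68 and 10.7 (3.53, SE 0.15), and its nearest gene TMEM33 gave -0.04 (adjusted p = 0.50). LINC02268 rose from 1.02 and 0.732 CPM to 7.85 and 8.53 (3.33, SE 0.18), between FBXO8 at 16260 bases, which rose by 0.41, and HAND2 at 561537 bases, a transcription factor of sympathetic neurons, which rose by 1.82. In these 3 RNAs both overexpression libraries lay well above both parental ones, which their choice among the largest rises favours.

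LINC03051 went from 0.237 and 0.336 CPM to 2.33 and 2.38 (log2 fold change 3.10, SE 0.26). It lies between LSAMP, a neuronal adhesion protein, which rose by 0.98, and IGSF11, another adhesion protein, which rose by 5.47. LINC02623 went from 0.902 and 0.633 CPM to 6.32 and 5.70 (3.07, SE 0.20), while its nearest gene BMS1 fell by 0.15 and RET, the receptor for GDNF ligands, rose by 4.12 at 203004 bases. LINC01587 went from 0.142 and 0.237 CPM to 1.78 and 1.30 (3.07, SE 0.34), between EVC2 at 14971 bases, which rose by 1.72, and the kinase gene STK32B at 23575 bases, which rose by 3.35. LINC02691 went from 0.641 and 0.475 CPM to 3.47 and 2.92 (2.62, SE 0.23), and the kinesin gene KIF26A, its nearest, rose by 1.70. LINC02904 went from 1.23 and 1.05 CPM to 5.94 and 5.80 (2.46, SE 0.16), and its nearest gene LY6E gave 0.35 (adjusted p = 0.21). Of the 31-base stretches of LINC02904, 96.5% also lie on an alternate contig, so its reads are uncertain. The further flanking genes HAND2, IGSF11, RET and STK32B were chosen for mention after their values had been seen. Each of them moved the way of its RNA, which not every flanking gene did, as with MEX3B below.

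**Figure D1:**
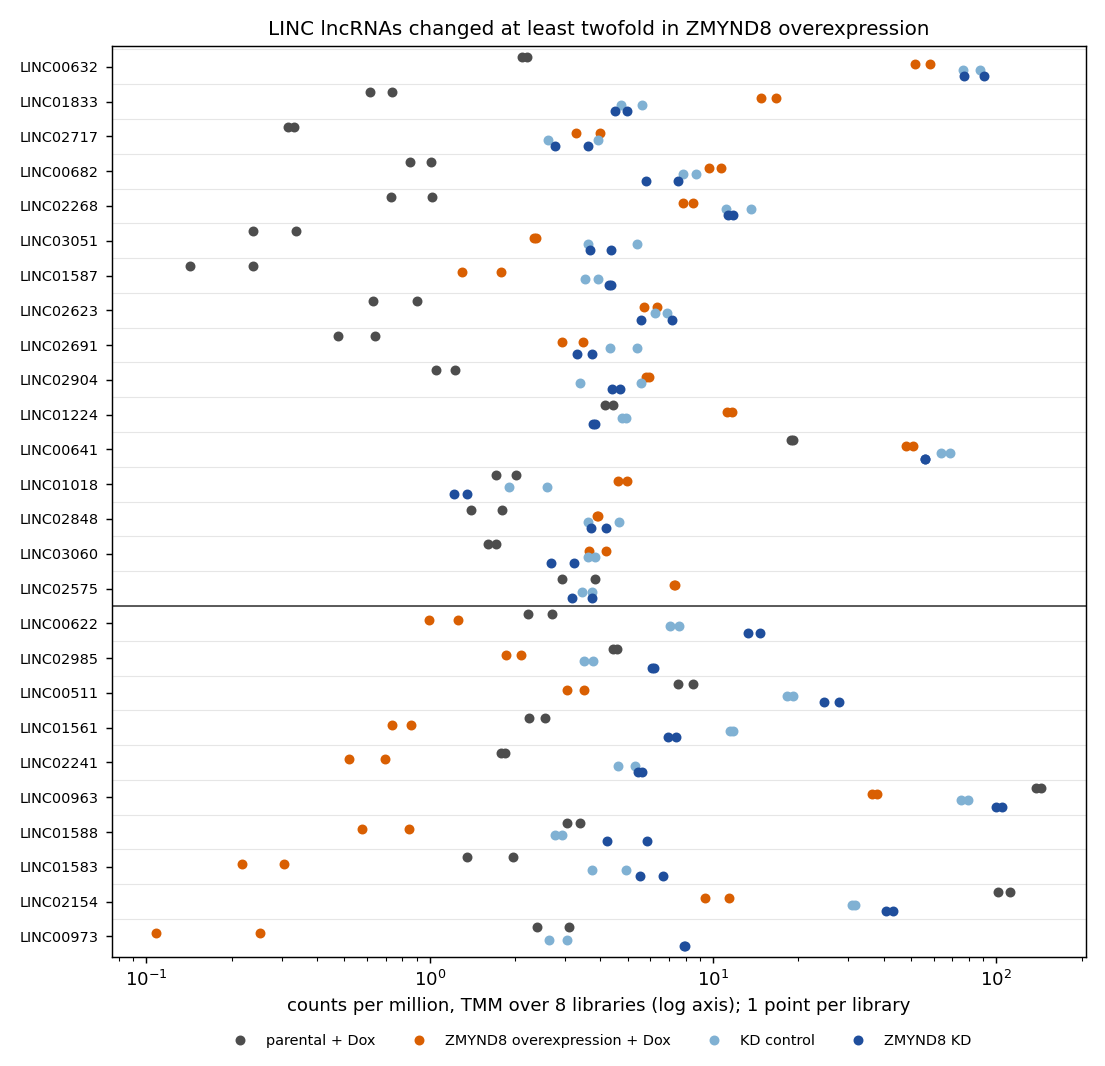
Level of each of the 26 LINC RNAs with a 2-fold change in overexpression, in CPM on a log axis, with 1 point for each of the 8 libraries and colours for the 4 groups; the 16 that rose are above the line and the 10 that fell below it. In LINC00632 the parental points at 2.11 and 2.20 CPM sit apart from all others, and in LINC00973 the overexpression points at 0.251 and 0.108 CPM do.

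The falls were fewer but steep. LINC00973 fell from 3.11 and 2.39 CPM to 0.251 and 0.108 (log2 fold change -3.78, SE 0.34, adjusted p = 3.5e-06). Its nearest gene DCBLD2, a membrane protein related to neuropilins, lies 79363 bases away and fell by 1.55. LINC02154 on the X chromosome, the highest per kilobase, fell from 101 and 112 CPM to 11.4 and 9.40 (-3.25, SE 0.09, adjusted p = 3.73e-10), and ATXN3L beside it was too low to be tested. LINC00963, which has been studied in several tumours, fell from 138 and 144 CPM to 36.5 and 38 (-1.83, SE 0.05, adjusted p = 7.2e-10), and NTMT1, a protein N-terminal methyltransferase gene 95197 bases away, fell by 0.39. LINC02154 and LINC00963 were both among the most abundant of these RNAs in the parental cells.

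LINC01583 fell from 1.35 and 1.96 CPM to 0.305 and 0.217 (log2 fold change -2.56, SE 0.32), with its nearest gene EFL1, a ribosome assembly GTPase, at -0.18. MEX3B, on the other side of LINC01583 at 42450 bases, rose by 0.90. LINC01588 fell from 3.04 and 3.38 CPM to 0.575 and 0.845 (-2.10, SE 0.23), with VCPKMT at -0.04 (adjusted p = 0.81). LINC02241 fell by 1.49 (SE 0.25), with the cadherin gene CDH18 at 0.03 (adjusted p = 0.89). LINC01561, a single-exon gene, fell from 2.56 and 2.24 CPM to 0.862 and 0.736 (-1.49, SE 0.22) together with PLPP4, a lipid phosphatase gene 5884 bases away, which fell by 1.74. LINC00511, studied in several tumours, fell from 7.55 and 8.49 CPM to 3.50 and 3.05 (-1.20, SE 0.13). It spans 350382 bases between the zinc transporter gene SLC39A11, which fell by 0.89, and SOX9, a transcription factor of cartilage and glia, which lies 163675 bases away and fell by 1.16. LINC02985 fell by 1.09 (SE 0.16) while BCL7A, a chromatin remodelling subunit gene 1262 bases away, rose by 0.21. LINC00622 fell from 2.71 and 2.22 CPM to 1.26 and 0.996 (-1.03, SE 0.22), with ZNF697 at -0.31, but 72.8% of its 31-base stretches occur elsewhere. SOX9 and MEX3B were likewise picked after their values had been seen.

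To show what lies before these genes, promoter windows from RefSeq (GRCh38.p14, 250 bases before and 50 after the start) were read for 69 of the 88 that matched by symbol. Of the starts, 42 lay within 100 bases of the start in the count table and 11 lay over 1000 bases away. Printed 5′ to 3′ on the gene's strand are an RNA that rose beside SIX3, an RNA that rose on the HAND2 side of chromosome 4, and a pair that fell in overexpression and rose in knockdown. Capitals mark matches, on either strand, to 8 motifs. The first is AGGTCA, a part and not the whole of a retinoid receptor site. The next are the AP-1 site TGACTCA, an E-box written CATCTG and another written CAGCTG. The others are the GATA factor site GATAAG, the homeodomain core TAATTA, the GC box GGGGCGGGG and the TATA box TATAAA.
LINC01833: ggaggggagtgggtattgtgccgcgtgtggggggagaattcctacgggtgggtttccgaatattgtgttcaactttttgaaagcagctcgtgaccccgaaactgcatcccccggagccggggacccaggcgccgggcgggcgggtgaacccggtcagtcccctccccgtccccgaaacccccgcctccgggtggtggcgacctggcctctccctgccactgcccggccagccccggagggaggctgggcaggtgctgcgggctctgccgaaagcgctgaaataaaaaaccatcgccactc
LINC02268: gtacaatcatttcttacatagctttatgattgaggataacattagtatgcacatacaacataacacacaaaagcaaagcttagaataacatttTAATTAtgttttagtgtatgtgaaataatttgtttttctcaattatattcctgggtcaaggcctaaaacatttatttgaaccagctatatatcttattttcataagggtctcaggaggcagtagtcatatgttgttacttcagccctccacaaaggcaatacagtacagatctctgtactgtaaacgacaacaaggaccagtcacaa
LINC00511: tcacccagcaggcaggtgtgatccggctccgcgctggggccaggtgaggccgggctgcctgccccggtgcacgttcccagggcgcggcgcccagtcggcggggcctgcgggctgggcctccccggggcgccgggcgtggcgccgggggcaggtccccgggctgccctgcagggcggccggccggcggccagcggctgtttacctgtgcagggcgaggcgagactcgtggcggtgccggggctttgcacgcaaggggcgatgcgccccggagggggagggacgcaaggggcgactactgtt
LINC00622: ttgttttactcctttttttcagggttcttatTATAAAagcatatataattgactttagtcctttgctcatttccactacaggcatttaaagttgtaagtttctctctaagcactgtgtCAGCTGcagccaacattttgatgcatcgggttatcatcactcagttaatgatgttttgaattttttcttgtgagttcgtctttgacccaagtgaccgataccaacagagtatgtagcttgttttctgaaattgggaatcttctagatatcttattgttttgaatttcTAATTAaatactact
The windows lie at chr2:44939150-44939449, chr4:174220349-174220648, chr17:72640423-72640722 and chr1:119599242-119599541, all on the minus strand. Those of LINC01833 and LINC00511 had 66.3% and 78% GC, 24 and 35 CpG dinucleotides and none of the 8 motifs. Those of LINC02268 and LINC00622 both had 33.3% GC, with 1 and 3 CpG, and both held TAATTA. The window of LINC00622 also held CAGCTG and TATAAA. RNAs that rose and RNAs that fell thus included both GC-rich and AT-rich starts.

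Over the 69 windows the median GC was 58.0%, beside 58.7% for all 35116 windows, and the median number of CpG was 11 beside 14. CAGCTG stood in 27.5% of the LINC windows and 17.9% of all. TAATTA stood in 10.1% and 4.8%, and AGGTCA in 17.4% and 13.8%. The remaining shares were 5.8% and 4.9% for TGACTCA, 15.9% and 14.7% for CATCTG, 4.3% and 6.4% for GATAAG, 10.1% and 15.7% for the GC box and 14.5% and 11.5% for TATAAA. Among RNAs that rose in overexpression 7 of 35 windows held AGGTCA, and among those that fell 1 of 14 did. That 1 window, of LINC00973, starts 66492 bases from the start in the count table. By the same count CAGCTG stood in 8 and 5, CATCTG in 4 and 4, TAATTA in 4 and 1, and TATAAA in 5 and 2. The GC box stood in 2 and 2, TGACTCA in 2 and 1, and GATAAG in 2 and 1. No test was made of these splits. These are counts of letters and not of bound sites.

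The other changes in overexpression were smaller. The 30 RNAs that rose less than 2-fold had log2 fold changes of 0.17 to 0.99, and included abundant ones such as LINC01116, which had 51.4 and 50.9 CPM in parental and 73.2 and 81.0 in overexpression (0.68, SE 0.06). LINC00472, which holds the genes of the microRNAs MIR30A and MIR30C2, fell by 0.41 (adjusted p = 0.0294), a call lost in 6 of the alternatives run, at -0.24 (adjusted p = 0.168) with length and GC trends removed. The 25 that did not pass lay between -0.34 and 0.45. LINC00205, the LINC RNA with the largest count sum, was among them, with 108 and 113 CPM in parental and 103 and 111 in overexpression.

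Fewer of the LINC RNAs passed in knockdown. Of the 88, 12 rose, 9 fell and 67 did not pass, beside 13.4% of all 19789 genes that rose and 10.8% that fell. A 2-fold rise was found for LINC02246 and LINC00973 and a 2-fold fall for LINC02593, beside 1.36% and 0.596% of all genes. All 3 were among the 27 RNAs that would have fallen under the count limit without their highest group, and of the other 61, 8 rose and 7 fell. The shares of the LINC RNAs in knockdown, 13.6% and 10.2%, were thus near those of all genes. They lay below those of the 13007 other genes tested with a count sum of at least 1000, of which 17.9% rose and 14.9% fell. The median log2 fold change was -0.06, and the 67 that did not pass lay between -0.53 and 0.24.

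LINC02246 had the largest rise, from 3.36 and 3.43 CPM in KD control to 14.1 and 13.5 in ZMYND8 KD (log2 fold change 2.03, SE 0.11, adjusted p = 1.21e-06). It had 0.309 and 0.475 CPM in parental and 0.610 and 0.368 in overexpression, where it did not pass. Of its exon bases 42.8% are shared on the same strand with another lncRNA, ENSG00000235609, so reads there cannot be given to either with certainty. Its nearest gene NRIP1, a nuclear receptor corepressor, gave -0.19 in knockdown (adjusted p = 0.053) and rose by 1.82 in overexpression.

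LINC00973 rose from 3.04 and 2.64 CPM to 7.93 and 7.90 (log2 fold change 1.48, SE 0.13, adjusted p = 2.81e-05), and DCBLD2 beside it fell by 0.21. LINC00622 rose from 7.59 and 7.05 CPM to 14.6 and 13.3 (0.93, SE 0.10), together with ZNF697, which rose by 0.33. LINC01588 rose from 2.94 and 2.77 CPM to 5.86 and 4.23 (0.83, SE 0.18, adjusted p = 0.00626). Without the second KD control library it was 0.78 with an adjusted p of 0.0608. LINC02985 rose from 3.77 and 3.50 CPM to 6.08 and 6.21 (0.76, SE 0.13). In each of these 4 RNAs both knockdown libraries lay above both controls, which their choice among the largest rises favours.

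Among the 9 that fell, LINC02593 went from 2.86 and 2.38 CPM to 1.35 and 1.09 (log2 fold change -1.10, SE 0.20, adjusted p = 0.00259), and SAMD11 beside it, at 2912 bases, fell by 0.62. LINC01018 went from 1.90 and 2.60 CPM to 1.35 and 1.22 (-0.80, SE 0.21, adjusted p = 0.019). Its call was lost in 3 of the alternatives run, among them DESeq2 (-0.80, adjusted p = 0.0564) and the fit without the second KD control library (-0.56). LINC01018 overlaps NSUN2, an RNA methyltransferase gene, which rose by 0.18. LINC01561 went from 11.5 and 11.8 CPM to 7.41 and 6.93 (-0.70, SE 0.10), and PLPP4 fell by 0.33. LINC00667 fell by 0.50 (SE 0.08) and LINC01116, from 67.1 and 71 CPM to 45.9 and 54.5, by 0.46 (SE 0.08). The nearest genes of the last 2, ZBTB14, a transcription factor gene, and MTX2, a mitochondrial import gene, gave -0.12 and 0.03 and did not pass. LINC00294 also fell, by 0.35, from 58.2 and 58.5 CPM to 44.6 and 46.8, and TCP11L1, in whose body it lies, fell by 0.24.

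The directions in both experiments were then set beside each other, which the separate controls allow. Of the 88 RNAs, 17 passed in both, 46 in overexpression alone, 4 in knockdown alone and 21 in neither. The share that passed in both, 19.3%, was near the 19.1% of all 18504 genes tested in both. Of those genes 7849 passed in overexpression alone, 1182 in knockdown alone and 5944 in neither. Of the 17, 15 moved in opposite directions (88.2%), beside 61.7% of the 3529 genes of all kinds that passed in both, 76.0% of 192 other lncRNAs and 60.5% of 3227 protein-coding genes. Of the 17, 5 reached the count sum only through their highest group, overexpression or ZMYND8 KD, so that values compared here helped to choose them, and without these 5 the count was 10 of 12 (83.3%). Without the second KD control library 11 passed in both, of which 9 moved in opposite directions. LINC00641, LINC01018, LINC01116, LINC00667, LINC00654, LINC02593 and LINC01518 rose in overexpression and fell in knockdown. The knockdown call of LINC00654 (-0.27, adjusted p = 0.0242) was lost in 4 of the alternatives run, at -0.22 to -0.30. LINC00973, LINC02154, LINC01583, LINC01588, LINC00963, LINC00511, LINC02985 and LINC00622 did the reverse. LINC00662 rose in both, by 0.28 and 0.36, and LINC01561 fell in both. Across the 88 the log2 fold changes of both experiments had a Pearson r of -0.39, as a description over genes, which are not replicates.

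**Figure D2:**
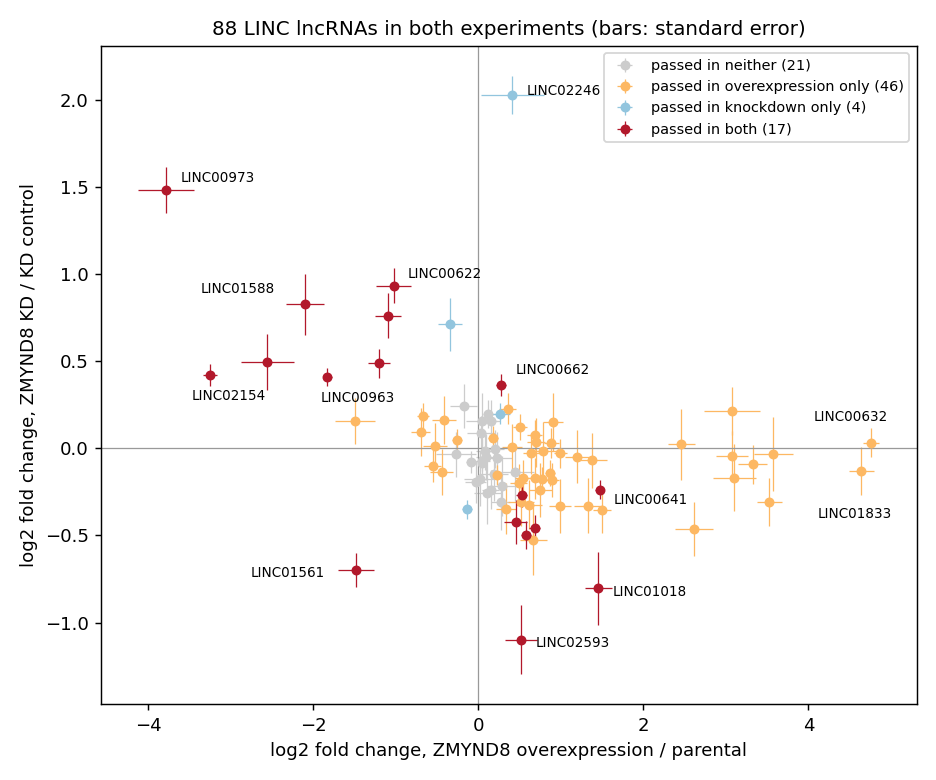
Log2 fold change of the 88 LINC RNAs in overexpression against parental (x axis) and in ZMYND8 KD against KD control (y axis), with standard errors as bars and colours for the experiments in which each passed. Of the 17 that passed in both, 15 lie at the upper left or lower right, and the largest rises in overexpression lie near 0 on the knockdown axis.

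Most of the strong falls in overexpression were rises in knockdown. Of the 10 RNAs that fell 2-fold in overexpression, 8 rose in knockdown, LINC01561 fell and LINC02241 did not pass (0.16, adjusted p = 0.433). LINC00973, LINC01583, LINC01588 and LINC02241 reached the count sum only through ZMYND8 KD, their highest group, and of the other 6, 5 rose in knockdown. Of all 1323 genes that fell 2-fold in overexpression and could be tested in knockdown, 33.6% rose. Among genes other than these with a count sum of at least 1000 the share was 37.2%. The rises of these 8 were modest, from 0.41 for LINC00963 to 1.48 for LINC00973. LINC02154, for example, had 31.8 and 30.9 CPM in KD control and 40.7 and 43.1 in knockdown (0.42, SE 0.06, adjusted p = 0.000704), and LINC00963 had 79.3 and 74.9 against 105 and 99.9. The call of LINC01583 (0.49, adjusted p = 0.0494) was the weakest and was lost in 6 of the alternatives run. These included DESeq2 (0.50, adjusted p = 0.0634) and the fit without the second KD control library (0.30).

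The strong rises showed little of this. Of the 16 RNAs that rose 2-fold in overexpression, none rose in knockdown, 2 fell (LINC00641 and LINC01018) and 14 did not pass. Among the 14, LINC02691 and LINC00682 passed as falls with a replicate block (-0.46 and -0.31, adjusted p = 0.0383 and 0.0432). LINC02691 also passed with upper quartile normalization (-0.48, adjusted p = 0.047). Of all 2114 such genes 7.0% rose in knockdown and 12.9% fell, so the 12.5% of these RNAs that fell were near that share. Among genes other than these with a count sum of at least 1000, 9.19% rose and 20.4% fell. LINC00641 had 19.1 and 18.9 CPM in parental, 50.8 and 47.9 in overexpression, 64.0 and 68.5 in KD control and 55.9 and 56.2 in knockdown. The fall in knockdown was small (-0.24, SE 0.06, adjusted p = 0.0103) and its call was lost without the second KD control library (-0.19, adjusted p = 0.106). The 10 largest rises had log2 fold changes between -0.46 and 0.21 in knockdown.

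The difference of the effects was tested over all 8 libraries. The effect of overexpression was higher than that of knockdown for 45 of the 88 and lower for 18, beside 24.6% and 24.4% of the 22619 genes tested. It differed for 16 of the 17 RNAs that passed in both, the exception being LINC00662 (adjusted p = 0.403). For LINC01561, which fell in both, the fall was larger in overexpression by 0.79 (adjusted p = 0.00591). All 26 RNAs with a 2-fold change in overexpression had a different effect in knockdown by this test, with LINC00973 the farthest (-5.27, adjusted p = 6.58e-09) among those that fell. The 17 and the 26 were chosen by fold changes that also enter this test, so these counts follow largely from that choice.

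The control groups themselves differed in these RNAs. For the 16 strong rises the log2 difference of KD control minus parental ranged from 0.08 for LINC02575 to 5.25 for LINC00632, with a median of 3.03. For the 10 strong falls it ranged from -1.76 for LINC02154 to 2.29 for LINC01561, with a median of 0.64. No test was made of this difference, since the parental cells were given Dox and the KD control cells, which went through another procedure, are not labelled so. In the 10 largest rises its lowest value was 1.99, and 6 of them, LINC00632, LINC02268, LINC03051, LINC01587, LINC02623 and LINC02691, were on average higher in KD control than in overexpression. By contrast LINC01224 had 4.44 and 4.17 CPM in parental, 4.94 and 4.78 in KD control, 3.83 and 3.77 in knockdown and 11.7 and 11.2 in overexpression, and LINC02575 likewise was high in overexpression alone.

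Protein-coding genes beside the LINC RNAs were looked up as the gene with the smallest distance between gene bodies. The median distance was 10282 bases, 12 of the 88 overlapped their neighbour, 4 faced it head to head within 1 kb and 12 lay beyond 100 kb. In overexpression 81 neighbours could be tested, and in 40 pairs both genes passed. In 34 of these (85.0%) they moved the same way. The same share was 82.6% over the 1261 such pairs of other lncRNAs, so the LINC RNAs stood near the other lncRNAs in this. Among LINC RNAs over no protein-coding gene it was 32 of 37, and with the nearest start site in place of the nearest body 35 of 40. Some neighbours count more than once, since SAMD11, ZNF33B, MTX2 and UQCRFS1 are each nearest to a pair of LINC RNAs.

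Pairs with large changes included CTNNA3, an adhesion gene that rose by 5.82 beside LINC01515 (0.49), and KCNJ12, a potassium channel gene that rose by 3.19 beside LINC02693 (0.17). LINC02693 lost its call in 7 of the alternatives run. The 6 pairs that moved apart were LINC02980 and TRIM38 (0.99 and -1.19), LINC01719 and NBPF10 (0.54 and -1.20), LINC00654 and GPCPD1 (0.53 and -0.59), LINC01018 and NSUN2 (1.45 and -0.24), LINC02623 and BMS1 (3.07 and -0.15), and LINC02985 and BCL7A (-1.09 and 0.21). NBPF10 belongs to a family of near-identical copies, and its counts and those of LINC01719 are uncertain. The 4 head-to-head pairs were LINC00205 with POFUT2, LINC01521 with PATZ1, LINC01547 with SLX9 and LINC01560 with ZNF41. Both genes rose in overexpression in the pairs of PATZ1 (0.50) and ZNF41 (0.40), while POFUT2 fell by 0.67 beside LINC00205, which did not pass.

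**Figure D3:**
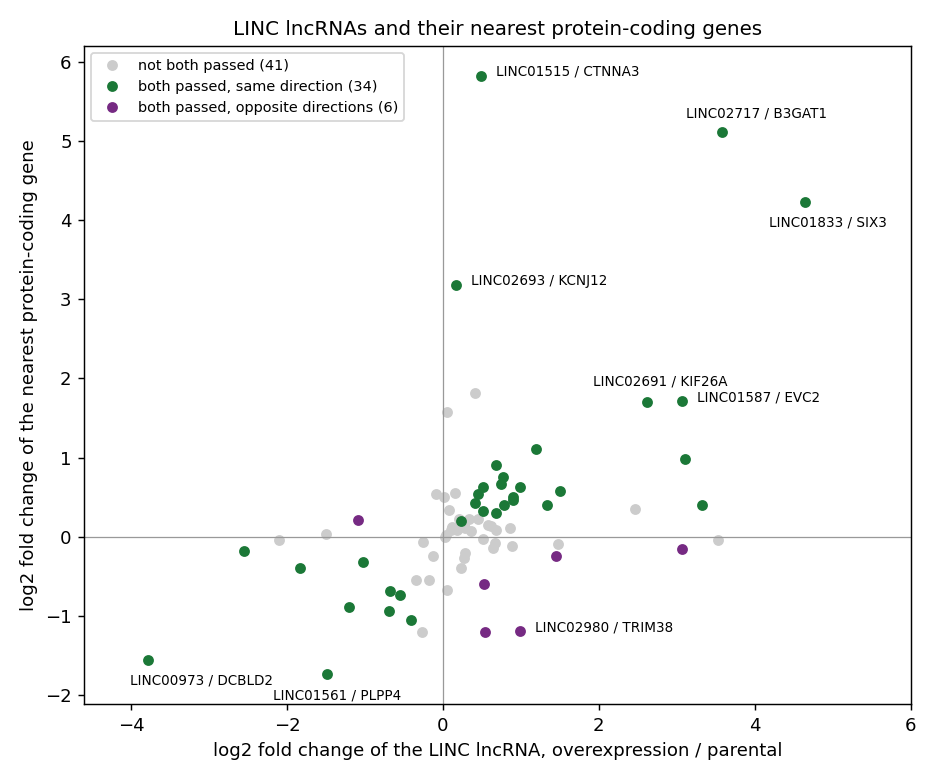
Log2 fold change in overexpression of each LINC RNA (x axis) and of its nearest protein-coding gene (y axis) for the 81 pairs that could be tested, coloured by whether both passed and in which direction. The 34 pairs that moved the same way lie at the lower left and upper right, with SIX3, B3GAT1 and CTNNA3 at the top, and 6 pairs moved apart.

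In knockdown 9 pairs had both genes pass and 6 of these moved the same way (66.7%, beside 71.7% for other lncRNAs). These were LINC01561 with PLPP4, LINC02593 with SAMD11, LINC01518 with ZNF33B, LINC00294 with TCP11L1, LINC00654 with GPCPD1 and LINC00622 with ZNF697. LINC02593 with SAMD11 and LINC01518 with ZNF33B rose together in overexpression and fell together in knockdown, and LINC00622 with ZNF697 did the reverse. OGFRL1, nearest to LINC00472, fell by 1.05 in overexpression and rose by 1.01 in knockdown, while LINC00472 itself gave 0.16 in knockdown (adjusted p = 0.45).

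A list of 53 transcription factor genes of neuroblastoma states and neural development was read against the flanks. SIX3 was the only listed gene that was the nearest neighbour of a LINC RNA. Pairs in which a listed gene was the first protein-coding gene on either side included LINC01833 with SIX3, LINC02268 with HAND2, LINC00511 with SOX9 and LINC01572 with ZFHX3. In the first 3 of these both genes passed in overexpression and moved the same way. LINC01572 gave 0.11 (adjusted p = 0.57) and ZFHX3 gave -0.07 (adjusted p = 0.287). In knockdown HAND2 fell by 0.25, SOX9 rose by 0.17 and ZFHX3 rose by 0.29, while LINC02268 gave -0.09, which did not pass, and LINC00511 rose by 0.49.

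The nearest gene was a zinc finger gene, by its symbol, for 11 of the 88 (12.5%), which made 10 different genes. Of 19919 protein-coding genes 2.86% bear such a symbol, but that is a share of genes and not of neighbours. The share among neighbours of other lncRNAs was not computed, so no enrichment can be read from these values. Many zinc finger genes encode DNA-binding repressors that lie in clusters, and the set was chosen for mention after its values had been seen. Of the 9 such neighbours tested in overexpression, 8 rose and ZNF697 fell, and in knockdown 4 fell and ZNF697 rose. Over all 528 zinc finger genes tested in overexpression 56.4% rose and 9.1% fell, and of 525 in knockdown 5.1% rose and 23.0% fell. Of the 11 LINC RNAs beside them 6 rose, 1 fell and 4 did not pass in overexpression. LINC01224 beside ZNF91 rose by 1.5, with ZNF91 at 0.58, and LINC00665 beside ZFP14 rose by 0.78, with ZFP14 at 0.75. In knockdown ZNF91 fell by 0.52 and LINC01224 gave -0.35 (adjusted p = 0.0763). Zinc finger genes are a multigene family. The share of 31-base stretches that occur elsewhere ranged from 1.23% for LINC01560 to 72.8% for LINC00622 among these 11 LINC RNAs, and was 53.5% for LINC00665, whose reads are uncertain.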

How the data were processed

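The 8 RNA-seq libraries of SK-N-SH cells were grouped by titles and treatments in the labels. The authors deposited raw counts per gene, as whole numbers. The methods name Trim_Galore for quality trimming, with removal below a Phred score of 25, Hisat2 for alignment to GRCh38, and featureCounts with GENCODE release 28 for counting. The strand setting is not given in the sources used here. The table holds 60662 lines, of which 3 broken lines of 1 gene were left out.

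Symbols, biotypes and exon sequences came from GENCODE release 44, which holds 60462 of 60659 identifiers, and coordinates from the count table. The 31-base stretches were sought in the GRCh38 primary assembly and in 261 alternate contigs. Low genes were removed with filterByExpr in each experiment. The quasi-likelihood test of edgeR 4.0.16 (R 4.3.3), two-sided and with TMM factors, was then run over all remaining genes, and the difference of effects was tested over all 8 libraries. The alternatives were other normalizations, DESeq2 1.42.0, no filter, all libraries in 1 fit, length and GC trends, a replicate block, each library left out and other count sums. Replicates differed by more than counting noise (chi-square per degree of freedom 6.05 to 8.86). Counting noise is the only error that the depth sets.

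Genes named in the text were those with the 10 largest changes each way among 2-fold changes in overexpression, the 5 largest each way in knockdown, 2-fold changes in both, the 5 highest per kilobase, those beside the count limit, and their nearest protein-coding genes. Others were named after their values had been seen. The LINC RNAs and the lists were chosen with earlier results of these data known. Promoter windows came from RefSeq. A flanking gene of the list of transcription factors is not reported here.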

Additional observations from a re-analysis of the deposited data

How the results depend on the processing

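No alternative turned the direction of a result. With the selection at a count sum of at least 2000, 52 RNAs remained in the selection, of which 28 rose, 11 fell, 7 rose 2-fold and 5 fell 2-fold in overexpression, and in knockdown 6 rose and 0 changed 2-fold in either direction. At 500 or more, 140 could be tested in overexpression, where 35 fell, 28 rose 2-fold and 20 fell 2-fold, and 20 rose and 6 rose 2-fold in knockdown. Leaving out 1 library at a time gave 40 to 44 that rose and 14 to 18 that fell in overexpression, 16 to 18 and 9 to 10 of them 2-fold. In knockdown it gave 9 to 13 that rose and 5 to 11 that fell, with the 5 without KD control replicate 2. It gave 2 to 4 that rose 2-fold and 0 to 1 that fell 2-fold, with the 4 and the 0 without ZMYND8 KD replicate 2. RNAs that moved in opposite directions numbered 11, 11 and 16 with DESeq2, no filter and all 8 libraries in 1 fit. The share of all genes that passed moved with the setting too. In overexpression it was 60.78% in the main fit and 28.94% with DESeq2, and in knockdown 24.25% and 11.39%, where DESeq2 kept more low genes. It was also lower in each fit without 1 library. These counts thus do not describe the LINC RNAs alone, and shares of all genes at the other count sums were not computed.

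Deviations of libraries with the same replicate number correlated little (0.03 in overexpression and 0.06 in knockdown over 22619 genes). With the number as a replicate block 14 fell in knockdown and 20 moved in opposite directions. Over all genes the block raised the share that passed in knockdown from 24.25% to 31.93%. Whether the numbers pair the knockdown libraries is thus not settled. Of the RNAs named as rising in overexpression and falling in knockdown, LINC02593 lost its call in overexpression with length and GC trends removed (0.22, adjusted p = 0.369) and without the first overexpression library (0.16, adjusted p = 0.474), and LINC01518 lost both calls under DESeq2 with values of 0.44 and -0.42 (adjusted p = 0.121 and 0.0821).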
